A study of Rattus norvegicus with 8 samples.

Results

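The 4 arrays of sham-operated rats, out of 8 arrays in the series, were compared between 4 h and 4 d after surgery. The comparison asks which microRNAs (miRNAs) differed between both timepoints in animals whose vestibular organ was left intact. It covered the 408 of 758 rat miRNAs on the array that were detected on both arrays of at least 1 of the sham groups. The animals were male Sprague–Dawley rats, 7 weeks old. In the sham operation (SO) group the left ear was operated on without opening the labyrinth, and in the unilateral vestibular deafferentation (UVD) group the left labyrinth was opened and treated with ethanol. Each array held the left medial vestibular nucleus (MVN), the brainstem nucleus that receives vestibular afferents, pooled from 3 animals, and each group had 2 arrays. The groups were SO 4 h, SO 4 d, UVD 4 h and UVD 4 d, and no unoperated animals were included, so time after surgery, age at harvest and recovery from anesthesia could not be told apart.

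miRNAs are short RNAs that repress messenger RNAs through base pairing, mainly by the seed at bases 2 to 8. In the hindbrain, miR-10a and miR-10b are made from genes inside the Hox clusters, whose homeobox genes specify position along the body axis. miR-7 and miR-137 are enriched in neurons, miR-34b and miR-34c are made in ciliated epithelia such as the ependyma and choroid plexus, and the large miR-379 and miR-410 cluster is an imprinted neuronal cluster. A hairpin precursor gives a 5p and a 3p arm, and both can be measured.

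7 miRNAs passed the test between both timepoints in the SO group, 6 lower and 1 higher at 4 d, with miR-344b-5p among them only through its detection at 4 h. Their mature sequences, with those of their close relatives, are shown because shared seeds and near-identical sequences bear on how separately they were measured. The sequences are from RefSeq (GRCr8), written 5′ to 3′, with the seed in capitals.
miR-10a-5p: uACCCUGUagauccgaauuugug
miR-10b-5p: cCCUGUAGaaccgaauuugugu
miR-7a-5p: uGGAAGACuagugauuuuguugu
miR-7b: uGGAAGACuugugauuuuguugu
miR-7a-2-3p: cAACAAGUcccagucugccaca
miR-7a-1-3p: aCAACAAAucacagucugccau
miR-137-3p: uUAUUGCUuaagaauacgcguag
miR-34c-5p: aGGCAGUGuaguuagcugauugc
miR-34b-5p: aGGCAGUGuaauuagcugauugu
miR-34c-3p: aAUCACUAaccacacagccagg
miR-34b-3p: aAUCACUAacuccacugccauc
miR-344b-5p: aGUCAGGCugcugguuauauuc
miR-344b-3p: gGUAUAACcaaagcccgacugu

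miR-7a-5p and miR-7b share a seed and differ at 1 base, A10U, counted from the 5′ end of miR-7a-5p. miR-34b-5p and miR-34c-5p share a seed and differ at 2 bases, A11G and U23C. The RefSeq entry of miR-10b-5p starts at position 3 of miR-10a-5p and differs from it at 1 base, U12A, over the 21 bases they share, so the printed seeds differ because of the start. A probe for one member of such a pair may also bind the other, and this was not tested. In GRCr8 miR-10a-5p lies at chr10:81779730-81779752 (+ strand) within 10 kb of Hoxb3 and Hoxb4, and miR-10b-5p lies at chr3:80035886-80035907 (+ strand) overlapping Hoxd4. miR-34c-5p lies at chr8:60306133-60306155 (- strand) next to miR-34b-5p at chr8:60306657-60306679, and miR-137-3p lies at chr2:209165767-209165789 (+ strand). The miR-7a-2 hairpin gives miR-7a-2-3p at chr1:142215856-142215877 (+ strand), while miR-7a-1-3p comes from a hairpin at chr17 that overlaps Hnrnpk. miR-7a-5p can come from both hairpins.

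Before normalization, the 75th percentile over all 758 miRNAs was 111 and 124 on the SO 4 h arrays. It was 107 and 99.6 on the SO 4 d arrays. In detection the SO arrays were alike. They detected from 408 to 415 miRNAs, no spot was saturated, and 399 miRNAs were detected on all 4. Values are scanner intensities of each miRNA, quantile normalized over the 8 arrays, so that equal values on different arrays mean equal rank. The median absolute log2 difference between the 2 arrays of a group was 0.09 at 4 h and 0.15 at 4 d, against a median absolute log2 fold change of 0.16 between both timepoints. Defining miRNAs of brain tissue were measured, with 15 of 21 arms of the neuronal list and 4 of 6 of the oligodendrocyte list meeting the detection rule. The 5 with the highest mean signal, miR-29b-3p, miR-219a-5p, let-7c-5p, miR-125b-5p and let-7a-5p, carried 23.7% of the summed signal, which also depends on the probes, and the lowest adjusted p among them was 0.265 (limma, Benjamini-Hochberg). All 8 arrays lay on 1 slide, with the SO arrays in 1 row and the UVD arrays in the other, and with the 4 h arrays in columns 3 and 4 and the 4 d arrays in columns 1 and 2. Slide column and timepoint could not be told apart. P-values measure the spread between pools of 3 animals.

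The 7 miRNAs that passed an adjusted p of 0.05 (limma, Benjamini-Hochberg over 408 miRNAs) were 1.72% of those tested. The 6 lower at 4 d were 1.47% and the 1 higher was 0.245%. At an unadjusted p under 0.05, 61 miRNAs (15.0%) were lower and 42 (10.3%) were higher at 4 d, where 20.4 in all would be expected from 408 tests with no difference. The 2 arrays of one timepoint lay entirely below those of the other for 121 miRNAs lower at 4 d (29.7%) and for 108 higher (26.5%). The directions were balanced, with a lower mean at 4 d for 200 miRNAs (49.0%) and a higher mean for 205 (50.2%). That balance depended on the scaling used. With each array set to its 75th percentile over the whole panel of 758, the log2 fold change of the middle miRNA moved from 0.00 to 0.21. There 74.3% had a higher mean, and 3 of 6 calls were higher. With the 75th percentile of the miRNAs detected on all arrays 63.2% had a higher mean, and with no normalization 52.0% did. Only 18 miRNAs had an absolute log2 fold change over 1, 9 in each direction.

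miR-10a-5p and miR-10b-5p, the Hox cluster miRNAs, both fell. miR-10a-5p read 491 and 452 on the SO 4 h arrays and 226 and 159 on the SO 4 d arrays. The timepoints did not overlap, and the signal was 2.45-fold higher at 4 h (log2 fold change -1.31, 95% interval -1.73 to -0.89, adjusted p = 0.0328, limma). On the UVD arrays it read 200.0 and 205 at 4 h and 168 and 171 at 4 d, all within the range of the SO 4 d arrays. miR-10b-5p read 256 on both SO 4 h arrays and 133 and 98.4 on the SO 4 d arrays, a log2 fold change of -1.17 (95% interval -1.57 to -0.77, adjusted p = 0.0375, limma). It also had no overlap, and its UVD arrays, at 135 and 129 at 4 h and 109 and 93.3 at 4 d, again lay beside SO 4 d. The other 9 of the 11 Hox cluster miRNA arms on the array, from miR-10, miR-196 and miR-615, did not meet the detection rule. Both probes of each miRNA were lower at 4 d, from -1.60 to -1.21 on the log2 scale for miR-10a-5p and from -1.26 to -1.24 for miR-10b-5p.

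In the miR-7 family, 3 of 4 measured arms were lower at 4 d and 2 of them passed. miR-7a-5p, a neuronal and neuroendocrine miRNA, read 868 on both SO 4 h arrays and 452 and 318 on the SO 4 d arrays. The groups did not overlap, and the log2 fold change was -1.19 (95% interval -1.62 to -0.77, adjusted p = 0.0375, limma). Its UVD values lay between 402 and 452 at both timepoints. miR-7b, which differs by 1 base, read 115 and 147 at 4 h against 82.7 and 52.3 at 4 d (log2 fold change -0.98, adjusted p = 0.139, limma), and did not pass. The lowest p of all 408 belonged to miR-7a-2-3p, the 3p arm of one of the hairpins that give miR-7a-5p. It read 19.1 and 17.7 at 4 h and 6.29 on both arrays at 4 d, a log2 fold change of -1.55 (95% interval -1.75 to -1.35, adjusted p = 0.00157, limma). miR-7a-1-3p, the 3p arm of the other hairpin, had overlapping timepoints, with 71.8 and 74.6 at 4 h and 72.9 and 75.8 at 4 d (log2 fold change 0.02, 95% interval -0.12 to 0.16). The 3p arms of both hairpins thus gave different values beside the same 5p arm. miR-7a-2-3p was dim, and its size depended on the signal used: the log2 fold change was -0.19 on the authors' normalized values and -0.14 on the median spot signal after background correction.

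miR-137-3p, a neuronal miRNA known for its part in synapse maturation, fell as well. It read 1030.2 and 1046 on the SO 4 h arrays and 614 and 524 on the SO 4 d arrays, without overlap. The log2 fold change was -0.87 (95% interval -1.12 to -0.62, adjusted p = 0.0326, limma). The 4 UVD arrays read between 473 and 614. miR-137-3p was the only one of 15 tested arms in the neuronal list to pass: 6 were higher and 9 lower at 4 d. The list's median of -0.07 read 0.06 and 0.17 when the arrays were scaled to a 75th percentile, which is -0.03 relative to the median of all miRNAs in both cases. miR-153-3p (log2 fold change -0.33, adjusted p = 0.118) and miR-138-5p (-0.19, adjusted p = 0.139, limma) were lower at 4 d without passing. The summed signal of the list ranged from 78881 to 83146 at 4 h and from 77674 to 81608 at 4 d, so the ranges overlapped while miR-137-3p was lower.

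At 4 h miR-344b-5p read 4.37 and 3.12 and was marked as detected, and at 4 d it was detected on neither array. These signals were close to the lowest called detected. It entered the comparison only because it was detected at 4 h, where it is high, and its SO 4 d and UVD arrays had no spread at the floor, so its pass (adjusted p = 0.00969, limma) is given as a description. Against the lowest signals called detected on the 4 d arrays it was at least 1.57-fold higher at 4 h on this scale, while the log2 fold change was -0.09 on the authors' normalized values and -0.04 on the median spot signal after background correction. It lay at the floor of 1 on all 4 UVD arrays. The other arm, miR-344b-3p, read 22.5 and 18.6 at 4 h and 13.3 and 11.1 at 4 d (log2 fold change -0.75, adjusted p = 0.114, limma), and miR-344a-3p read 131 and 120 against 101 on both 4 d arrays (-0.31, adjusted p = 0.118). Neither of these 2 passed.

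The only miRNA that passed with a higher signal at 4 d was miR-34c-5p. It is made with miR-34b from 1 transcript and is abundant in multiciliated cells. It read 681 and 590.0 on the SO 4 h arrays and 976 and 1000.3 on the SO 4 d arrays. The timepoints did not overlap, and the log2 fold change was 0.64 (95% interval 0.44 to 0.85, adjusted p = 0.0328, limma). UVD arrays read between 912 and 1046. miR-34b-5p, the cluster partner with the same seed, read 829 and 740 at 4 h and 1133 and 1201 at 4 d (log2 fold change 0.57, adjusted p = 0.0586, limma). The 3p arms had similar values, 0.54 for miR-34b-3p and 0.53 for miR-34c-3p, with no overlap between timepoints and adjusted p of 0.139 and 0.153. miR-34a-5p, which shares the 5p seed but has another gene, had the same value on all 4 SO arrays. In the ciliated cell list 4 of 5 tested arms, those of miR-34b and miR-34c, were higher at 4 d with an unadjusted p under 0.05, beside 10.3% of all tested miRNAs. These 4 arms come from 1 transcript and are not independent. The other tested arm, miR-449a-5p, has the same 5p seed and had a lower mean at 4 d. With the 75th percentile over the panel as the scale its mean was higher. The list's median log2 fold change was 0.54, and 0.25 on the authors' normalized values. Choroid plexus miRNAs did not move together: 3 of 7 were higher and 4 lower, miR-448-5p among the latter (-0.81, adjusted p = 0.153, limma). Their summed signal was between 4040 and 4043 at 4 h and between 4143 and 4345 at 4 d. The part of ciliated or choroid plexus cells in the miR-34 values was not tested.

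**Figure D1:**
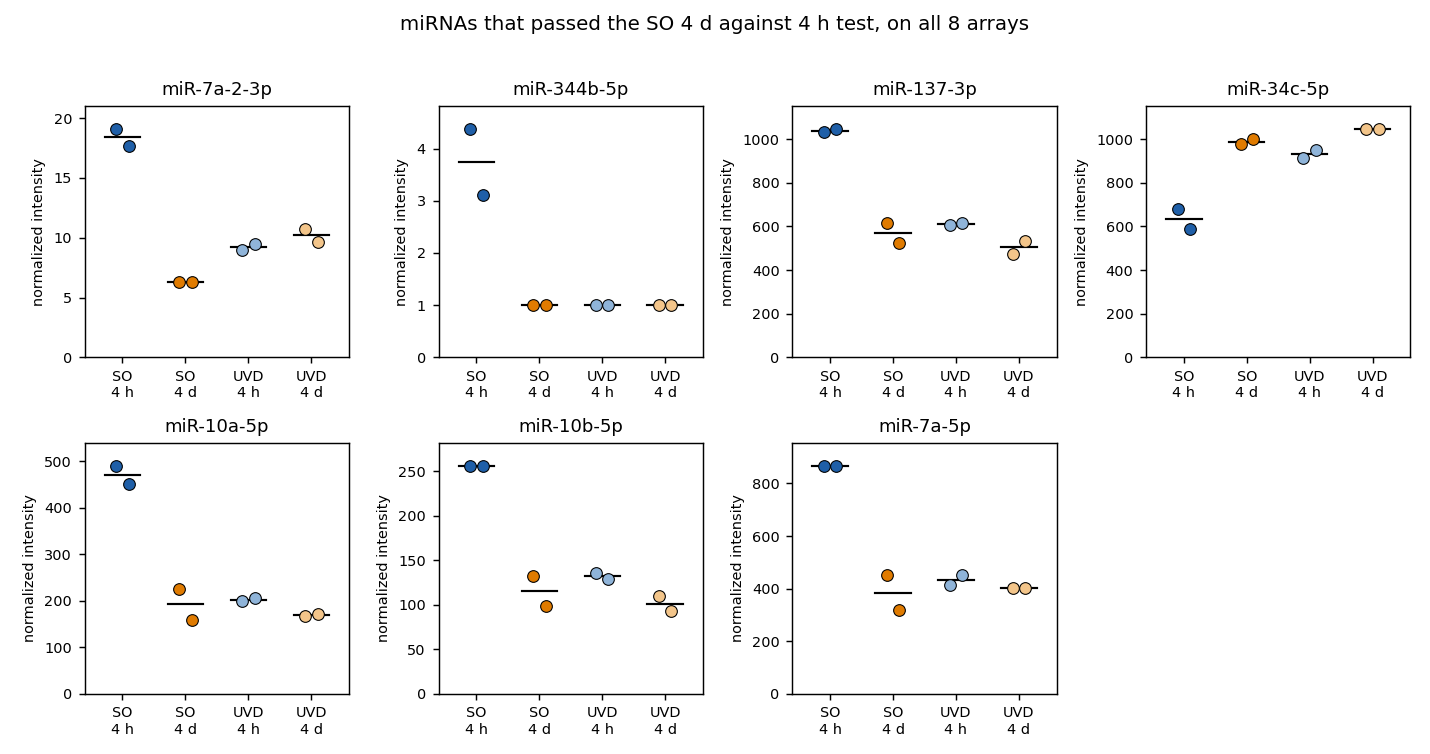
Quantile normalized intensity (linear axis from 0) of the 7 miRNAs that passed the SO comparison, on each of the 8 arrays; points are arrays and the line is the mean of 2. In every panel both SO 4 h arrays lay on one side of the other 6, for miR-10a-5p at 491 and 452 against 226 or less.

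**Figure D2:**
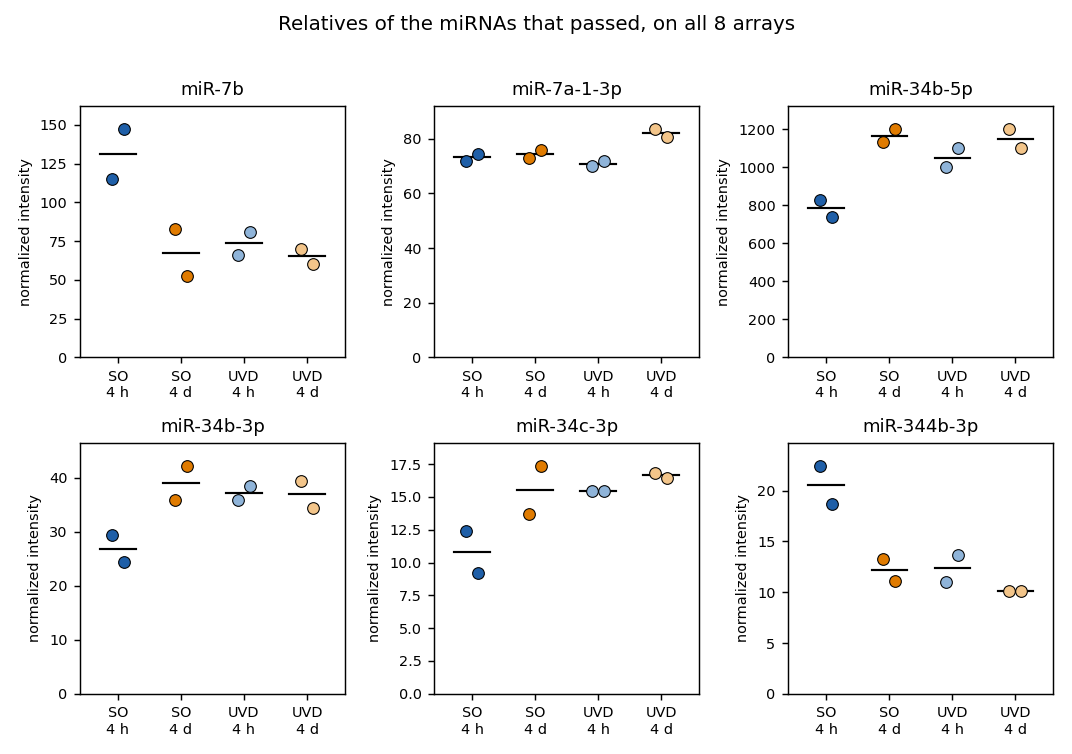
Quantile normalized intensity (linear axis from 0) of 6 relatives of these miRNAs on each of the 8 arrays; points are arrays and the line is the mean of 2. miR-7b and miR-344b-3p were lower and the miR-34 arms higher on SO 4 d than on SO 4 h arrays, while miR-7a-1-3p overlapped; none of the 6 passed.

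For each of the 7 miRNAs both SO 4 h arrays lay outside the range of the other 6 arrays, while for miR-34c-5p the UVD 4 d arrays also lay above all others and for miR-7a-2-3p the SO 4 d arrays below all others. Both SO 4 h arrays lay above all 6 other arrays for 77 of 408 miRNAs (18.9%) and below all of them for 52 (12.7%). The SO 4 d arrays did so for 2 and 5 miRNAs, the UVD 4 h arrays for 9 and 11, and the UVD 4 d arrays for 27 and 31. Of the 103 miRNAs with an unadjusted p under 0.05 in the SO comparison, 56 had SO 4 h above and 31 had it below every other array. SO 4 d was below every other array for 3 of them, miR-7a-2-3p included. The counts are a description, since these arrays also chose the 103 miRNAs.

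**Figure D3:**
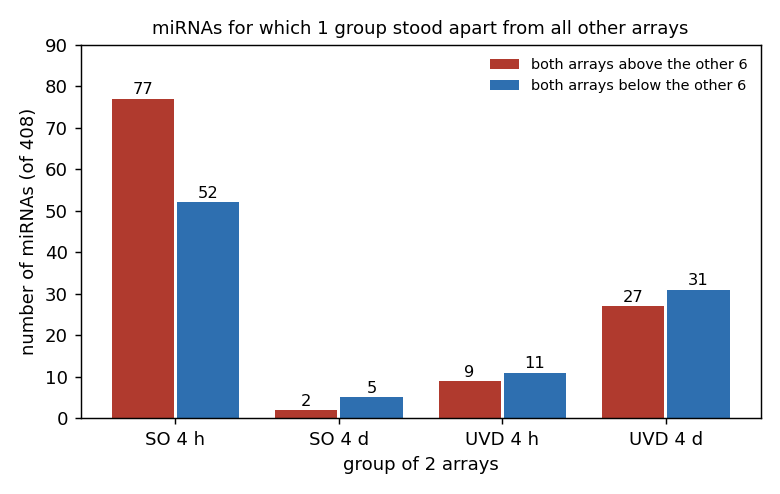
Number of the 408 tested miRNAs for which both arrays of 1 group lay above (red) or below (blue) all 6 other arrays. The SO 4 h bars, 77 and 52, are the tallest of the 4 groups.

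The time change in the SO group was set beside that in the UVD group, which used other arrays but the same slide columns for each timepoint. Over 408 miRNAs Pearson's r between both log2 fold changes was 0.15 and Spearman's rho was 0.30, a description across miRNAs, which are not independent. Of the 103 miRNAs with an unadjusted p under 0.05 in the SO group, 80 had the same sign in the UVD group. The same sign was not counted over all 408 miRNAs, so no background share stands beside it. Among the 103, the median log2 fold change of those lower at 4 d was -0.35 in the SO and -0.15 in the UVD group. For those higher it was 0.37 and 0.12. Since the SO values chose these miRNAs and the UVD values did not, the sizes are not a comparison of the groups. The difference between the time changes passed for 1 miRNA (0.245%), miR-7a-2-3p. It read 9.0 and 9.52 on the UVD 4 h arrays and 10.8 and 9.63 on the UVD 4 d arrays, so its time change was 1.68 log2 units higher in the UVD than in the SO group (adjusted p = 0.00614, limma). For the other 6 miRNAs the adjusted p of the difference lay between 0.0563 for miR-344b-5p and 0.468 for miR-10b-5p, and a difference was not shown.

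**Figure D4:**
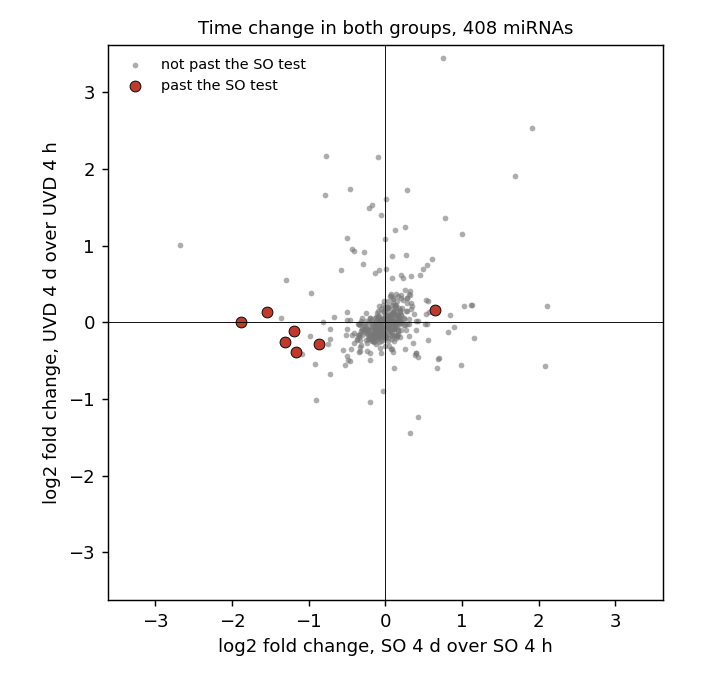
Log2 fold change from 4 h to 4 d in the SO group (horizontal axis) and in the UVD group (vertical axis) for 408 miRNAs; red points passed the SO comparison. The 7 red points lie from -1.88 to 0.64 horizontally and from -0.39 to 0.17 vertically.

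The imprinted miR-379 and miR-410 cluster was the list with the most tested arms. Of its 43 tested arms 40 had a lower and 3 a higher mean at 4 d, beside 49.0% lower over all tested miRNAs. The median log2 fold change was -0.26 (-0.14 on the authors' normalized values). 38 arms were lower with no overlap, beside 29.7% of all tested miRNAs, and 22 were lower at an unadjusted p under 0.05, beside 15.0%. None passed after adjustment. With the 75th percentile over the panel as the scale, the split was 36 lower and 7 higher, with 42 of 43 below the median of all miRNAs. miR-379-5p read 1242 and 1161 at 4 h and 987 and 868 at 4 d (log2 fold change -0.37, adjusted p = 0.118, limma). miR-380-5p read 27.8 and 28.2 against 21.6 and 20.4 (-0.42, adjusted p = 0.0586), and miR-411-5p and miR-541-5p gave -0.31 and -0.37. The neighbouring miR-127, miR-433 and miR-434 group had 15 of 15 arms with a lower mean (median -0.15), and 9 of 15 with the 75th percentile over the panel as the scale, where 15 of 15 lay below the median of all miRNAs. miR-127-3p read 8875 and 7267 at 4 h and 6745 and 6045 at 4 d (log2 fold change -0.33, adjusted p = 0.160, limma). The members of such a cluster come from shared transcripts and are not independent.

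The activity-regulated miR-132 and miR-212 cluster was also lower, with 3 of 3 arms (median -0.50) under quantile normalization and 2 of 3 with the 75th percentile over the panel as the scale, where all 3 lay below the median of all miRNAs. The list's median was -0.10 on the authors' normalized values and -0.08 on the background-corrected median spot signal. miR-132-3p read 1921 and 1709 at 4 h and 1464 and 1115 at 4 d (log2 fold change -0.50, adjusted p = 0.139, limma), without overlap. In the miR-221 and miR-222 cluster, miR-222-3p read 95.7 and 86.2 against 68.4 and 59.0 (-0.52, adjusted p = 0.139), while miR-221-3p overlapped. Outside the lists, miR-298-5p (-0.92), miR-135a-5p (-0.50) and miR-135a-3p (-1.09) were lower at 4 d with adjusted p from 0.114 to 0.153 (limma). On the authors' normalized values the same miRNAs read -0.12, -0.38 and -0.09.

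Lists with higher values at 4 d included those of the blood and immune system. In the microglial and leukocyte list 6 of 8 arms had a higher mean, beside 50.2% of all tested miRNAs, and 5 were higher at an unadjusted p under 0.05, beside 10.3%. The list's median was 0.25 (0.13 on the authors' normalized values). miR-142-3p, made in hematopoietic cells, read 379.7 and 385 at 4 h and 491 and 629 at 4 d (log2 fold change 0.54, adjusted p = 0.141, limma). miR-155-5p and miR-146a-5p, induced in inflammation, gave 0.53 and 0.35 (adjusted p = 0.186 and 0.160), and none of the list passed. The summed signal of the list ranged from 3742 to 3770 at 4 h and from 4246 to 4382 at 4 d. The largest part of that sum was miR-150-5p, at 2370 on both 4 h arrays and 2675 on both 4 d arrays. Its log2 fold change was 0.17, and 0.00 on the authors' normalized values. Among the 5 arms, miR-142-3p and miR-142-5p come from 1 hairpin and are not independent. The erythroid list was higher in 4 of 4 arms (median 0.26, none under an unadjusted p of 0.05) and the vascular list in 3 of 5, where the median of 0.04 turned to -0.02 with no normalization. In tissue pools a change in the number of cells and a change in RNA per cell could not be told apart.

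The growth-associated miR-17 family clusters were higher in 12 of 14 arms (median 0.21), with miR-19a-3p at 0.32 and miR-20a-5p at 0.31. In the miR-15, miR-16, miR-195 and miR-497 family 6 of 8 arms were higher (median 0.21). miR-195-5p read 962 and 912 at 4 h and 1201 and 1709 at 4 d (log2 fold change 0.61, adjusted p = 0.153, limma). All 14 let-7 arms had a higher mean, but the median was 0.10 and none had an unadjusted p under 0.05. On the authors' normalized values 12 of the 14 were higher. The miR-29 family was lower in 6 of 6 arms, with a median of -0.12. With each array set to its 75th percentile over the panel it read 0.11, which is -0.10 relative to the median of all miRNAs, with 6 of 6 arms below that median. The lists of miR-30, of miR-181, of miR-23, miR-27 and miR-24, of miR-99, miR-100 and miR-125, of miR-130 and miR-301, and of the injury and hypoxia miRNAs had medians between 0.02 and 0.14 and no member that passed. The lowest of these, that of miR-23, miR-27 and miR-24, turned to -0.01 on the authors' values.

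miRNAs known from tissue other than the MVN were also measured. The muscle list, which holds 3 candidates of the study, was higher in 7 of 8 arms (median 0.38), with miR-1b at 657 and 949 against 1077 and 1242 (log2 fold change 0.55, adjusted p = 0.208, limma) and miR-206-3p at 25.8 and 35.6 against 42.3 and 87.4 (1.00, adjusted p = 0.186). The summed signal of the muscle list was between 2359 and 3054 at 4 h and between 3204 and 3732 at 4 d. The sensory and epithelial list was higher in 5 of 5 tested arms (median 0.68), beside 50.2% of all tested miRNAs. Its summed signal went from between 791 and 859 to between 1155 and 1431. miR-96-5p, of the sensory hair cell cluster, read 510.2 on both 4 h arrays and 728 and 912 at 4 d (0.68, adjusted p = 0.232), and miR-183-5p and miR-182 gave 0.69 and 0.42. The arms of miR-96, miR-182 and miR-183 belong to 1 cluster and are not independent. miR-141-3p, an epithelial miRNA, had the largest log2 fold change in the sensory and epithelial list, 2.09, but was dim. It read 9.22 and 3.55 at 4 h and 20.9 and 28.2 at 4 d (adjusted p = 0.139, limma). On the median spot signal after background correction its log2 fold change was 0.29. In the UVD group the sensory and epithelial list was lower at 4 d in 5 of 5 arms (median -0.57). The muscle list there had 2 arms higher and 6 lower (median -0.12). The miR-7, miR-221 and miR-222, vascular, choroid plexus, oligodendrocyte, miR-181, miR-99 and candidate lists also had medians of opposite sign in the UVD group. The other lists kept the sign, such as the microglial and leukocyte list (0.25), the miR-17 clusters (0.24) and the miR-132 and miR-212 cluster (-0.43). A difference between the groups was not tested for the lists. Neither the muscle list nor the sensory and epithelial list had a member that passed, and their part in the other results was not tested. miR-204-5p, the main choroid plexus miRNA, gave 0.09 and the oligodendrocyte miR-219a-5p gave 0.11, with adjusted p of 0.725 and 0.602.

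**Figure D5:**
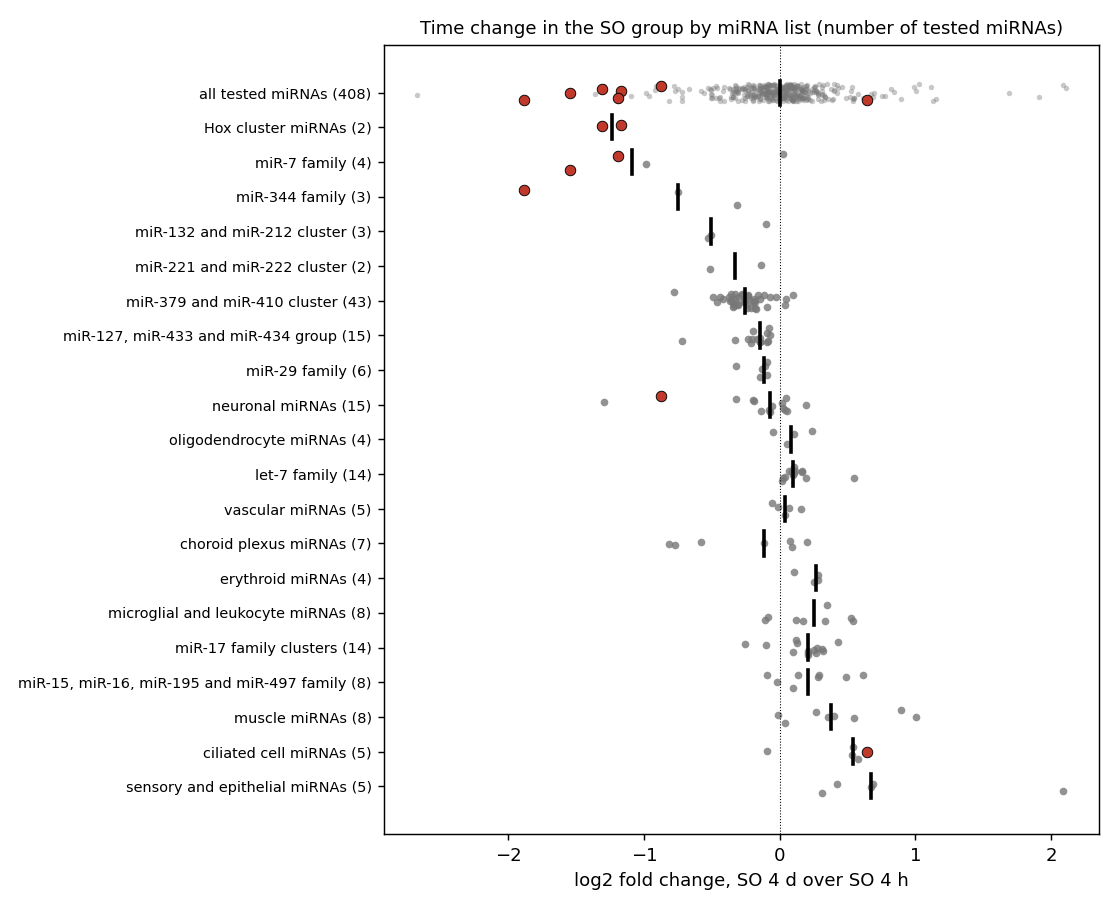
Log2 fold change from SO 4 h to SO 4 d (horizontal axis) for each tested miRNA, by list, with the number tested in brackets; bars are medians and red points passed the test. The Hox cluster, miR-7 and miR-344 lists have the lowest medians, and 40 of 43 arms of the miR-379 and miR-410 cluster lie left of 0.

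Other miRNAs higher at 4 d with an unadjusted p under 0.05 included miR-3584-5p, which read 46.0 and 45.3 at 4 h and 107 and 80.5 at 4 d (log2 fold change 1.02, adjusted p = 0.0761, limma). miR-149-3p (1.15), miR-327 (1.11), miR-3573-3p (0.99), miR-1-3p (0.89), miR-375-3p (0.82) and miR-3085 (0.70) had adjusted p between 0.139 and 0.153. On the authors' normalized values these 6 were higher by between 0.17 for miR-149-3p and 0.37 for miR-3573-3p on the log2 scale, and miR-3584-5p by 0.58. Over the 110 hairpins with both arms tested, the arms had the same direction in 70. miR-547-3p was detected only at 4 d within the SO group, at 3.63 and 3.90, at least 1.67-fold higher than at 4 h on this scale. Within the SO group miR-3560 was detected only at 4 h, at 4.48 and 9.11, at least 2.71-fold higher than at 4 d on this scale. Both entered the comparison only through the group where they were detected, so no test is given, and on the authors' normalized values their log2 fold changes were 0.04 and -0.03.

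The study used this comparison to exclude miRNAs that changed over time after a sham operation, with a fold change over 1.2 or under 0.83 and p under 0.15 in the methods' t-test. On the values used here 77 of 408 miRNAs (18.9%) met these limits, 34 higher and 43 lower at 4 d. All of the Hox cluster and miR-344 arms tested were among them, with 3 of 4 miR-7 arms and 12 of 43 in the miR-379 and miR-410 cluster. Of these, miR-344b-5p entered only through its detection at 4 h. After Benjamini-Hochberg adjustment the methods' t-test gave 0 calls, and it was undefined for 7 miRNAs without spread in either group. Of the 9 candidates the study named, miR-497-5p met the limits on these values. It read 976 and 880 at 4 h and 1161 and 1464 at 4 d (log2 fold change 0.49, limma adjusted p = 0.153). The limits use the unadjusted p of the methods' t-test, not this adjusted p. The study applied them to its own normalized values, on which 38 miRNAs met them instead of 77. Whether miR-497-5p met them on those values is not given here. The 8 others did not meet the limits on the values used here. Of these, miR-206-3p was at 1.00 on the log2 scale, miR-133a-3p at 0.36 and miR-31a-5p at 0.29. Their fold changes of 2.11, 1.29 and 1.21 exceeded the limit of 1.2, and they missed only the limit on p. With 2 arrays per group, a miss on p does not show that they were unchanged. The rest lay within the fold limits. They were miR-133b-3p at 0.26, miR-219a-5p at 0.11, miR-204-5p at 0.09, miR-221-3p at -0.14 and miR-218a-5p at -0.20.

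The calls rested on few arrays. Without the first SO 4 d array 15 miRNAs passed, without any other single SO array or a single UVD 4 h array 3 passed, and without either UVD 4 d array 1 passed. The quantile normalization was not repeated without the array, so a UVD array acted there only through the shared estimate of spread. A comparison of 2 against 2 arrays cannot reach an exact permutation p under 0.333. The fit instead draws on the spread over all 4 groups and over the tested miRNAs. On the SO arrays alone it gave 2 calls, with 1 of the 7 among them.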

How the data were processed

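Total RNA of MVN pools was hybridised to 1-colour Agilent rat miRNA arrays. The deposited scanner files, made by the authors with Feature Extraction 10.7.3.1 per the file headers, hold linear intensity values: spot signals, a total signal per miRNA and a detection mark. The authors also deposited their own quantile normalized intensity values.

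Here the total gene signal of 758 miRNAs was quantile normalized over 8 arrays, floored at 1 and log2 transformed. The 408 miRNAs detected on both arrays of SO 4 h or SO 4 d were fitted with limma 3.58.1 (R 4.3.3) on 4 group means, with eBayes and two-sided Benjamini-Hochberg adjusted p at 0.05. The difference between time changes came from the same fit. Bounds for undetected miRNAs used the lowest detected signal of each array. These values also went into the methods' t-test. The fit was tested on simulated data. The number of arrays limits the precision. Each result was recomputed with other scalings, signals, floors, filters and models, and with each array left out. Names were matched to RefSeq for 373 of 408 miRNAs.

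Members and lists were chosen with earlier results of these data known. miRNAs named in the text are those that passed, the 10 most extreme in each direction with an unadjusted p under 0.05 and detected on all 4 SO arrays, up to 4 per list with the smallest p, relatives of those that passed, the study's candidates, the 5 most abundant and those detected in 1 SO group alone. miR-34a-5p, miR-449a-5p and miR-182 come under relatives and lists.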

Additional observations from a re-analysis of the deposited data

Results flagged for a closer look

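The time change of miR-7a-2-3p differed between the groups: it was 1.68 log2 units higher in the UVD than in the SO group by the test of the difference itself (adjusted p = 0.00614, limma). It passed under 14 of 22 alternatives, with adjusted p from 0.00341 to 0.380. The difference was 0.17 log2 units on the authors' normalized values and 0.12 on the median spot signal after background correction.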

How the results depend on the processing

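No miRNA that passed changed direction under any of the alternatives run. miR-7a-2-3p passed under 20 of 25, miR-344b-5p under 12 of 24, miR-10a-5p under 12, miR-34c-5p and miR-7a-5p under 11, and miR-137-3p and miR-10b-5p under 10 of 25. miR-344b-5p entered only through its detection at 4 h, so its passes are given as a description. In place of 7 calls, there was 1 when arrays were set to the 75th percentile of the miRNAs detected everywhere and 1 with no normalization, both miR-344b-5p. There were 2 with a fit on the SO arrays alone, 2 when these arrays were also normalized without the UVD arrays, and 2 with no filter on detection. In each of these settings miR-7a-2-3p was the only one of the 7 that was kept. There were 27 with the median spot signal, 19 with the authors' normalized values and 0 with the methods' t-test. The median spot signal and the authors' values each kept 5 of the 7 and lost both miR-344b-5p and miR-7a-2-3p, and the cause was not tested. With each array left out in turn the count lay between 1 and 15. Replicate numbers are not stated to mark shared animals or batches, and the deviations of same-numbered arrays correlated between -0.15 and 0.19 over the 6 pairs of groups. With the replicate number as a block 2 miRNAs passed, miR-344b-5p and miR-7a-2-3p.

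The difference between time changes gave 0 calls with the mean processed spot signal, the median spot signal, the authors' normalized values or a trended prior, 2 with a floor at the lowest detected signal or a robust prior, 3 with no filter, and between 0 and 11 with each array left out. Under both 75th percentile scalings and with no normalization the 1 call was miR-344b-5p. That miRNA entered only through its detection at 4 h, so the call is given as a description. The study's exclusion limits were met by 136 miRNAs when the 75th percentile was taken over the whole panel, 28 with the median spot signal and 38 with the authors' values, instead of 77. Of 67 miRNAs named with values, 1 changed sign: miR-7a-1-3p lay between -0.0051 and 0.051 log2 units with an array left out. Dim miRNAs such as miR-344b-5p lay near the lowest detected signal, which limits their size.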
